A study of Mus musculus with 2 samples.

Results

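Endothelial cells were examined among the YFP+ hippocampal cells sorted from CT and Opa1 cKO mice. They were selected on transcripts. A cell had to hold more than 600 and fewer than 7500 genes, less than 20% of its UMIs (unique molecular identifiers, each marking 1 captured mRNA) from mitochondrial genes, at least 3 of the 6 markers Cldn5, Ly6c1, Itm2a, Pecam1, Flt1 and Klf2, at least 4 summed UMIs of Cldn5, Ly6c1 and Flt1, and fewer than 10 summed UMIs of the globin genes Hbb-bs, Hba-a1 and Hba-a2. No filter on YFP RNA was used. This rule found 402 cells, which were 160 of 4186 CT cells (3.82%, exact 95% binomial interval 3.26 to 4.45) and 242 of 6121 Opa1 cKO cells (3.95%, 3.48 to 4.47) within the limits on genes and mitochondrial share. Cells that also held at least 10 summed UMIs of Vtn, Rgs5 and Higd1b, which are genes of mural cells (pericytes and smooth muscle), were kept apart as mural co-capture cells. There were 122 of them in CT and 188 in Opa1 cKO, which left 38 CT and 54 Opa1 cKO cells below the mural limit. These are called endothelial-only for that limit alone, since 11 and 28 of them held 3 or more of the mural UMIs and 5 and 9 of them also met the rule for the pool of neural stem cells (NSC) given below.

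Both genotypes carried Nestin-CreERT2, a Cre that TAM switches on in cells with Nestin promoter activity, and the ROSA26YFP reporter on a C57BL/6 background, and the Opa1 cKO mice carried floxed Opa1 in addition. Both samples have the same strain label with Opa1-Flox, whereas the sorting protocol and the methods describe the controls as Opa1-Flox negative. TAM was given at 8 weeks of age and the hippocampi were collected at 12 weeks, 4 weeks post-TAM, after which cells of 3 mice per genotype were digested with papain, screened for viability by propidium iodide staining, sorted for YFP signal and pooled into 1 library of the 10x 3′ v2 assay. The CT library had 10799936 UMIs in 4634 barcodes (median 2134) and the Opa1 cKO library 18662032 in 6475 (median 2583), with 36 barcode sequences in both libraries, of which 2 CT and 3 Opa1 cKO cells were endothelial. Each genotype is 1 library, so the genotypes could not be tested against each other, cells are not replicates, and every interval given covers counting error only. Genotype and library cannot be told apart. The sorted cells are labelled as NSC and their progeny, and no label names endothelial cells. The sex of the pooled mice is not labelled, and in the NSC pool the Y-linked genes Ddx3y, Eif2s3y, Kdm5d and Uty summed to 18 UMIs in CT and 25 UMIs in Opa1 cKO, of which 15 and 23 were Kdm5d.

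Brain endothelial cells line the vessels and form the blood-brain barrier. Tight junctions seal the space between them, few caveolae cross them, and transporters carry glucose, amino acids and lipids in and drugs out. Wnt signals from neighbouring cells maintain this state, pericytes sit on the same basement membrane, and arterial, capillary and venous segments use partly different genes.

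The endothelial-only cells carried an endothelial transcriptome by genes the rule did not read, although all genes of cells chosen in this way are a description. Levels are in CPM, the UMIs of a gene scaled to 1000000 UMIs of its class and library. The most abundant mRNA was Bsg (basigin, a glycoprotein dense on brain endothelium), whose level was 24734 CPM (CT) and 26289 CPM (Opa1 cKO), while mural cells held 1059 and 952 CPM. Ly6a stood at 2672 and 3164 CPM, and at 34.0 and 10.6 CPM in mural cells. Pglyrp1, a secreted peptidoglycan-binding protein, stood at 2037 and 1589 CPM, and Ctla2a, a cysteine protease inhibitor, at 1362 and 1224 CPM. Of the rule's own genes, Cldn5, the main claudin of the barrier (chr16:18776847-18778262, mm10), yielded 416 UMIs from the CT and 800 from the Opa1 cKO cells and was found in all 38 and 54 cells. Itm2a had 673 and 1191 UMIs, and Pecam1, an adhesion molecule of cell borders, had 33 and 63. The summed Cldn5, Ly6c1 and Flt1 of a cell ran from 6 over a median of 24.5 to 73 UMIs in CT and from 6 over 25 to 68 in Opa1 cKO. The rule reads these genes, so this overlap of the libraries is partly fixed by it.

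The limits of the rule had these neighbours. Of all cells that met the rule, 6 CT and 3 Opa1 cKO cells held 4 or 5 of the summed UMIs, and 10 and 3 cells with enough markers stood just outside with 2 or 3. On the mural axis, 6 CT and 17 Opa1 cKO cells stood just below the limit with 5 to 9 UMIs, and 3 and 6 cells just above it with 10 to 14. A further 6 CT and 5 Opa1 cKO cells met the marker rule but had too few genes.

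**Figure D1:**
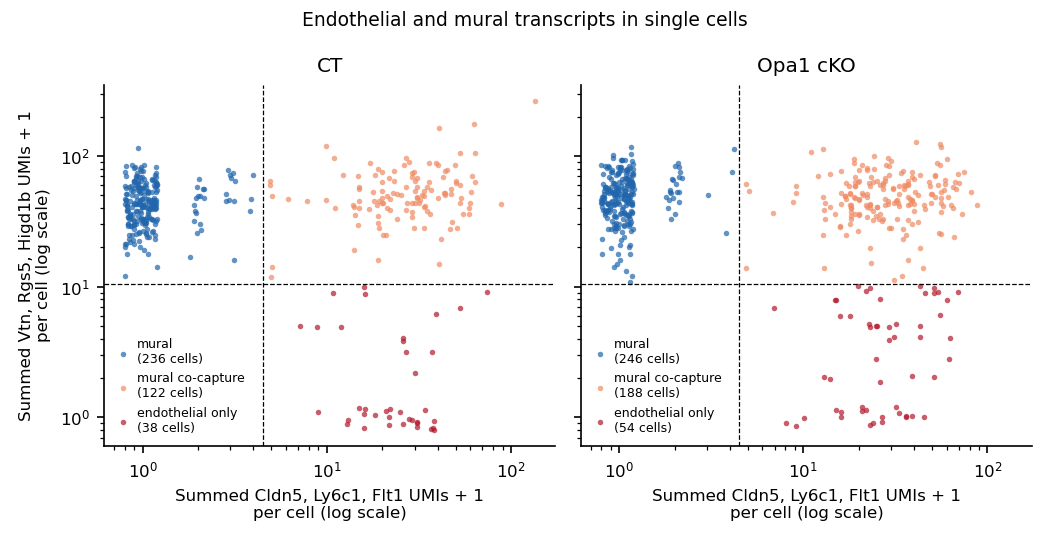
Each point is 1 cell, with summed Cldn5, Ly6c1 and Flt1 UMIs plus 1 on the horizontal log axis and summed Vtn, Rgs5 and Higd1b UMIs plus 1 on the vertical log axis, for CT (left) and Opa1 cKO (right), with a small random shift to separate points and dashed lines at the rule's limits. The 122 CT and 188 Opa1 cKO co-capture cells sit above the 38 and 54 endothelial-only cells and at the height of the mural cells.

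Most endothelial cells carried the transcripts of a mural cell as well. Co-capture cells made up 76.2% of the endothelial cells in CT (68.9 to 82.6) and 77.7% in Opa1 cKO (71.9 to 82.8). Conversely, 31.9% of 383 CT cells and 38.9% of 483 Opa1 cKO cells that met the mural limit also met the endothelial rule. The co-capture cells held a median of 48.5 and 48 summed Vtn, Rgs5 and Higd1b UMIs, where mural cells that did not meet the endothelial rule held 42 and 49. They also held 28 and 27 summed Cldn5, Ly6c1 and Flt1 UMIs, close to the medians of the endothelial-only cells. Their median depth was 3469.5 and 3427.5 UMIs, against 1766 and 2099 in endothelial-only cells and 1286.5 and 1464.5 in mural cells. The mural medians restate the split on the same 3 genes. Atp13a5, a pericyte ATPase outside the split, stood at 1044 and 453 CPM in co-capture cells, at 26.5 and 7.16 CPM in endothelial-only cells and at 2251 and 881 CPM in mural cells. Endothelial-only cells were not free of mural transcripts. In CT 24 of the 38 cells had none of the 3 genes, and in Opa1 cKO 19 of the 54. Rgs5, a pericyte regulator of G protein signalling, had 42 and 117 UMIs there, and Atp13a5 had 2 and 1. Whether 2 cells shared a droplet or stayed joined after digestion was not tested.

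YFP RNA was scarce in cells that had been sorted for YFP. The reporter was detected in 2 of 38 CT endothelial-only cells (5.26%, 0.644 to 17.7) and in 6 of 54 Opa1 cKO cells (11.1%, 4.19 to 22.6). In co-capture cells the shares were 45.9% and 44.1%, in mural cells 33.5% and 52.0%, in oligodendrocytes 49.6% and 45.7%, and in cells of the NSC pool, chosen by NSC and astrocyte genes such as Aldoc, Slc1a3 and Gja1, 42.9% and 64.2%. Depth differs among these classes, so each cell was also thinned to 1000 UMIs. The shares were then 5.41% of 37 and 5.77% of 52 endothelial-only cells, 13.2% and 13.8% of co-capture cells, 22.7% and 39.0% of mural cells, and 23.2% and 35.7% of the NSC pool. As a level, YFP stood at 26.5 and 78.7 CPM in endothelial-only cells, at 171 and 184 CPM in co-capture cells and at 321 and 527 CPM in mural cells. Endothelial-only cells were thus the lowest class at both depths. No class that should lack the reporter belonged to these sorted libraries, so the share due to free RNA was not measured, and whether YFP protein marked these cells was not tested.

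**Figure D2:**
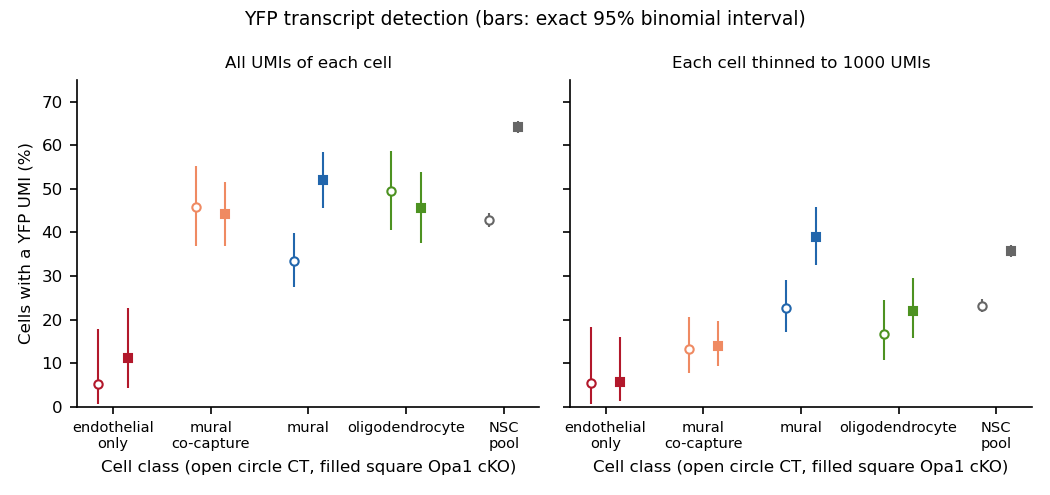
The vertical axis gives the percentage of cells with at least 1 YFP UMI in 5 classes, from all UMIs (left) and after thinning each cell to 1000 UMIs (right), with open circles for CT, filled squares for Opa1 cKO and bars for exact 95% binomial intervals. Endothelial-only cells stand at 5.26% and 11.1% before thinning and at 5.41% and 5.77% after it, the lowest of the classes.

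Opa1 itself, the inner-membrane GTPase that the Cre deletes (chr16:29579334-29654884, mm10), was too sparse for a comparison. Endothelial-only cells held 0 UMIs in CT, for which the limit of 3 counts is 39.7 CPM, and 3 UMIs in Opa1 cKO. Co-capture cells held 7 and 12 UMIs, a log2 ratio of Opa1 cKO over CT of 0.16 (−1.30 to 1.75). In the NSC pool the UMIs were 157 and 116, a log2 ratio of −1.27. A 3′ assay does not read whether the floxed exons are present, so these counts do not check recombination in endothelial cells.

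Over all genes the libraries differed little in these cells. Ratios below are log2 of Opa1 cKO over CT, so that −1 is 2-fold lower in Opa1 cKO. Of 753 genes with at least 50 UMIs in endothelial-only cells, 31 (4.12%) were 2-fold or more higher in Opa1 cKO and 18 (2.39%) were 2-fold or more lower, with a median of 0.10. In co-capture cells, which are other cells of the same libraries, 79 of 4450 genes (1.78%) were 2-fold or more higher and 126 (2.83%) lower, with a median of 0.01. Transcript length moved with the ratio in every class. Among genes whose longest annotated transcript was under 1 kb the median ratio in endothelial-only cells was 0.18 (139 genes), and among those of 4 kb or more it was −0.18 (134 genes). The same medians were 0.20 and −0.29 in co-capture cells, 0.19 and −0.27 in mural cells, 0.19 and −0.25 in oligodendrocytes and 0.28 and −0.18 in the NSC pool. The part of length in the genes named below was not tested, and lengths are given for the transporter, receptor, Wnt and interferon lists.

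Blood-brain barrier transporters and receptors stood lower in Opa1 cKO. Of the 22 listed genes, 13 had at least 50 UMIs in endothelial-only cells, of which 0 were 2-fold higher and 1 was 2-fold lower, and 10 of the 13 had a negative ratio (median −0.43). Their sum was 998 UMIs in CT and 1422 in Opa1 cKO, or 13200 and 10178 CPM, a log2 ratio of −0.38 (−0.49 to −0.26). Co-capture cells gave −0.30 (−0.35 to −0.24) with 16 of 22 genes negative. The sum was also lower in mural cells (−0.50, −0.74 to −0.27) and oligodendrocytes (−0.32, −0.62 to −0.03), and higher in the NSC pool (0.22). In endothelial-only cells the medians were alike for shorter and longer transcripts, at −0.43 for 7 genes under 4 kb and −0.34 for 6 longer genes. In co-capture cells they were −0.32 for 10 and −0.33 for 12. All genes of 4 kb or more had medians of −0.18 in endothelial-only and −0.29 in co-capture cells. The 12 longer transporters in co-capture cells thus lay near other genes of like length. By length group, all genes under 4 kb had medians of 0.13 to 0.18 in endothelial-only and 0.05 to 0.20 in co-capture cells.

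Slc7a5, the light chain of the large neutral amino acid transporter (chr8:121881150-121907694, minus strand), yielded 93 UMIs from CT and 94 from Opa1 cKO cells, 1230.1 and 673 CPM, a log2 ratio of −0.87 (−1.30 to −0.44). In co-capture cells it had 350 and 329 UMIs (−0.70, −0.93 to −0.48). In the NSC pool of the same libraries its ratio was 2.93. Mfsd2a, which carries lysophosphatidylcholine with docosahexaenoic acid and holds down transcytosis (chr4:122946850-122961188, minus strand), had 31 and 28 UMIs (−1.03, −1.82 to −0.25), and 103 and 105 in co-capture cells (−0.59, −0.99 to −0.18). It was the single one past 2-fold among the 13 transporters with at least 50 UMIs. Slco1a4, an organic anion transporter, had 198 and 272 UMIs (−0.43, −0.70 to −0.16) and in co-capture cells 798 and 832 (−0.56, −0.70 to −0.41). Tfrc, the transferrin receptor, had 15 and 10 UMIs (−1.47, −2.79 to −0.22), and 71 and 56 in co-capture cells (−0.96, −1.49 to −0.43). These 4 were the transporters and receptors with an interval below 0 in both classes of endothelial cells. The share of all genes with such intervals was not computed, so the 4 are a description.

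Other carriers differed less or in 1 class. Slc2a1, the glucose transporter of the barrier, had 112 and 196 UMIs (−0.08, −0.42 to 0.27), and −0.42 (−0.59 to −0.25) in co-capture cells. Slc6a6, the taurine transporter, had 99 and 160 UMIs (−0.19, −0.56 to 0.18). The drug efflux pumps Abcb1a and Abcg2 had 47 and 62 UMIs (−0.49, −1.06 to 0.09) and 83 and 108 UMIs (−0.51, −0.93 to −0.08), while in co-capture cells Abcg2 stood at 0.11 (−0.13 to 0.35). Slc38a5, a glutamine carrier, likewise stood at −1.33 (−2.43 to −0.25) on 19 and 14 UMIs and at 0.44 (−0.06 to 0.96) in co-capture cells. Slc7a1, the cationic amino acid transporter, went the other way, with 15 and 49 UMIs (0.82, −0.04 to 1.76) and 0.47 (0.15 to 0.80) in co-capture cells. The carriers thus did not move as 1 block.

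**Figure D3:**
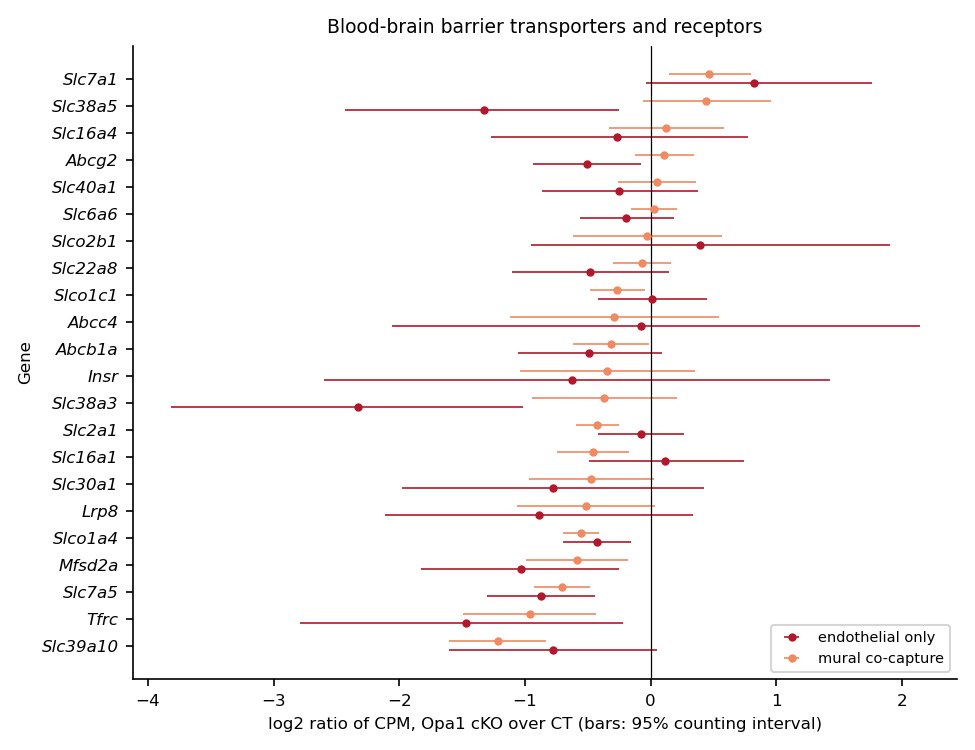
The horizontal axis gives the log2 ratio of CPM, Opa1 cKO over CT, for the 22 blood-brain barrier transporters and receptors, in endothelial-only cells (red) and mural co-capture cells (orange), with 95% counting intervals. Slc7a5, Mfsd2a, Slco1a4 and Tfrc lie left of 0 with their whole interval in both classes.

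Junction genes showed no such difference at this depth. The 14 listed genes summed to 248 and 427 UMIs (−0.10, −0.33 to 0.13), with 2 of 6 measured genes positive, and co-capture cells gave −0.10 (−0.20 to 0.00). Esam, an adhesion molecule of endothelial junctions, had 72 and 111 UMIs (−0.26, −0.70 to 0.19), Ocln (occludin) had 22 and 34 (−0.26, −1.07 to 0.59), and Ctnnb1 (beta-catenin) had 39 and 75 (0.06, −0.52 to 0.65). The 8 caveolar genes summed to 170 and 195 UMIs (−0.69, −0.99 to −0.38), with 3 of 4 measured genes negative, and gave −0.46 (−0.61 to −0.32) in co-capture cells, with 6 of 7 negative. Cav2, a partner of caveolin-1 (chr6:17281185-17289115), had 65 and 35 UMIs, a log2 ratio of −1.78 (−2.42 to −1.16), with −1.17 (−1.49 to −0.85) in co-capture cells, −1.54 in mural cells and −1.09 in the NSC pool. Cav2 thus held 65 of the 170 CT and 35 of the 195 Opa1 cKO UMIs of the list. The sum without Cav2 was not computed, and the 4 measured caveolar genes had a median of −0.28 in endothelial-only cells. Cav1, the main caveolin, had 19 and 38 UMIs (0.11, −0.72 to 0.99). Plvap, the diaphragm protein that barrier endothelium lacks, had 0 UMIs in both libraries.

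Receptors and transcription factors of endothelium were mixed. Of 27 listed endothelial genes outside the rule, 19 were measured, 7 with a positive and 12 with a negative ratio (median −0.26), 0 of them 2-fold higher and 2 of them, Tek and Ets1, 2-fold lower. The sum of the list, led by Bsg, was near 0 at −0.05 (−0.11 to 0.02), and in co-capture cells it was positive at 0.17 (0.14 to 0.20) where the median of 27 genes was −0.28. Length moved with this list. The 13 genes under 4 kb had a median of 0.05 and the 6 longer ones −0.77, and in co-capture cells the medians were 0.06 for 16 genes and −0.55 for 11, with all 11 longer genes negative. Flt1, a VEGF receptor of the rule with a 6.89 kb transcript, had 176 and 199 UMIs (−0.71, −1.01 to −0.41), a description only, since its UMIs helped to choose the cells. Kdr, the main signalling VEGF receptor (5.92 kb), had 34 and 32 UMIs (−0.97, −1.72 to −0.23). Tek, the angiopoietin receptor (4.65 kb), had 31 and 23 (−1.32, −2.16 to −0.49). In co-capture cells these 3 stood at −0.57 (−0.71 to −0.42), −0.55 (−0.90 to −0.21) and −0.50 (−0.94 to −0.06). Ets1, an endothelial transcription factor (5.08 kb), had 51 and 43 UMIs (−1.13, −1.75 to −0.52). Sox18, a SOX factor of vessel development with a 1.62 kb transcript, had 13 and 3 UMIs (−3.00, −5.45 to −1.14), and 53 and 23 in co-capture cells (−1.82, −2.59 to −1.09). Bsg and Ly6a stood higher, at 0.09 (0.01 to 0.17) and 0.24 (0.00 to 0.49), and at 0.32 and 0.35 in co-capture cells.

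Genes of the Wnt pathway that holds the barrier were sparse in endothelial-only cells, with 4 of 21 measured and a sum of 314 and 449 UMIs (−0.37, −0.58 to −0.16). Of these 4 genes 2 were positive, and the 3 under 4 kb had a median of 0.06. Mural cells gave a sum of −0.62 (−0.83 to −0.40). In co-capture cells 14 of 17 measured genes were negative (sum −0.31, −0.41 to −0.21), at a median of −0.27 for 7 genes under 4 kb and −0.66 for 10 longer ones. Lef1, the nuclear partner of beta-catenin, had 34 and 31 UMIs (−1.02, −1.77 to −0.27), with 139 and 127 (−0.75, −1.10 to −0.39) in co-capture cells. Nkd1, a Wnt target and feedback inhibitor, had 26 and 17 UMIs (−1.50, −2.47 to −0.56), with −0.99 (−1.39 to −0.59) in co-capture cells. Sox17 had 47 and 93 UMIs (0.10, −0.42 to 0.64). In the BMP and TGF-beta list, Eng (endoglin, a co-receptor) had 56 and 66 UMIs (−0.65, −1.18 to −0.11), while the target genes Id1 and Id3 had 94 and 184 UMIs (0.08, −0.28 to 0.46) and 122 and 219 UMIs (−0.04, −0.37 to 0.29). Of the flow-response genes, Klf2, which the rule reads, stood at 0.03 (−0.15 to 0.22), and Klf4 had 68 and 79 UMIs (−0.67, −1.16 to −0.18). In the flow-response list 2 of 3 measured genes were positive (median 0.34). Its sum was −0.36 (−0.66 to −0.06), and 0.05 (−0.09 to 0.19) in co-capture cells.

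Of the arterial genes Tm4sf1 and Clu stood higher in Opa1 cKO in endothelial-only cells, and capillary genes stood lower in both endothelial classes. All 5 measured arterial genes had a positive ratio in endothelial-only cells, where the list summed to 217 and 605 UMIs (0.59, 0.37 to 0.82), and 2 of the 5 had an interval above 0. How many of all genes had such an interval was not computed, so the 2 are a description. Tm4sf1, a membrane protein of endothelial surfaces, had 47 and 174 UMIs (1.00, 0.53 to 1.499), and Clu (clusterin) had 46 and 164 (0.95, 0.47 to 1.45). A single cell held 34.8% of the Clu UMIs in CT and 25.6% in Opa1 cKO. Clu is also abundant in the NSC pool, at 10924 and 8375 CPM, where its ratio was −0.38, and NSC and astrocyte markers were higher in the same Opa1 cKO endothelial-only cells by 0.54, whose part in the arterial sum was not tested. In co-capture cells Tm4sf1 stood at 0.00 (−0.15 to 0.15) and Clu at 0.01 (−0.21 to 0.23), and the list at −0.12 (−0.21 to −0.02). Mural cells also held Tm4sf1, at 1028 and 1072 CPM, so the 2 partners cannot be told apart as its source in co-capture cells. Gkn3, an arterial secreted protein, had 17 UMIs in 3 CT cells and 47 UMIs in 10 Opa1 cKO cells, with 76.5% and 42.6% of them in 1 cell. Its ratio was 0.58 (−0.25 to 1.47), that of Edn1 (endothelin) 0.47 (−0.39 to 1.40), and that of Sox17, which holds arterial identity, 0.10 (−0.42 to 0.64). Efnb2, a listed arterial gene with too few UMIs in endothelial-only cells to be measured, went the other way. Its interval lay below 0 in both endothelial classes, and no listed arterial gene had an interval above 0 in both. The venous list stood at −1.01 (−1.29 to −0.73) on 226 and 207 UMIs, of which 178 and 154 were Tmsb10, an actin-binding thymosin, and the venous adhesion genes Selp and Ackr1 had none. In co-capture cells the venous list stood at −0.12 (−0.23 to −0.01), with 3 of 7 measured genes positive. Capillary genes summed to 450 and 662 UMIs (−0.33, −0.50 to −0.15), with 4 of 6 measured genes negative, and gave −0.31 (−0.38 to −0.23) in co-capture cells. Mural cells of the same libraries gave −0.25 (−0.39 to −0.11). Car4, a carbonic anhydrase of capillary lumens, had 109 and 131 UMIs (−0.62, −0.998 to −0.24) and stood at 1775 and 1591 CPM in mural cells, and Cxcl12, a chemokine, 96 and 134 (−0.40, −0.79 to −0.01). No cell was assigned to a segment, so a different mix of vessels and a different level per cell cannot be told apart.

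Immediate early genes, which dissociation and stimuli raise within minutes, were lower in Opa1 cKO in endothelial-only cells. The list with heat shock genes summed to 1504 and 1996 UMIs, 19893 and 14286 CPM (−0.48, −0.57 to −0.38), and 12 of 14 measured genes were negative. Fos had 194 UMIs in 20 of 38 CT cells and 185 in 35 of 54 Opa1 cKO cells (−0.95, −1.25 to −0.66). Junb had 160 and 166 UMIs (−0.83, −1.15 to −0.51), and Jun had 304 and 338 (−0.73, −0.96 to −0.50). Hspa1a, an inducible heat shock protein, stood apart with 33 and 127 UMIs (1.06, 0.50 to 1.66). In co-capture cells the list gave 0.05 (0.00 to 0.10), with Fos at 0.23 (0.07 to 0.40) and Junb at 0.12 (−0.06 to 0.30), and in mural cells it gave 0.45. The ratio of the list was lower in endothelial-only than in co-capture cells by a difference of −0.53 (−0.64 to −0.42).

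Mitochondrially encoded mRNAs were lower in Opa1 cKO, by less than in the NSC pool. The 13 mRNAs summed to 3132 UMIs in CT and 4395 in Opa1 cKO, 41427 and 31457 CPM, a log2 ratio of −0.40 (−0.46 to −0.33). Co-capture cells gave −0.35 (−0.38 to −0.33), mural cells −0.55, oligodendrocytes 0.00 and the NSC pool −1.28. Of 9 measured members 7 were negative in endothelial-only cells. mt-Co3, a core subunit of complex IV, had 607 and 654 UMIs (−0.78, −0.94 to −0.62), and mt-Co1 had 472 and 575 (−0.60, −0.78 to −0.42). mt-Atp6, of ATP synthase, had 797 and 1218 UMIs (−0.27, −0.40 to −0.14). mt-Co2 was higher, with 176 and 437 UMIs (0.43, 0.17 to 0.69), and at 0.17 (0.06 to 0.27) in co-capture cells. Single cells overlapped widely. The mitochondrial share ran from 2.19% over a median of 3.45% to 8.68% in CT endothelial-only cells and from 1.01% over 3.296% to 6.47% in Opa1 cKO. None of the 38 and 54 cells was below 1% (upper limit of the exact interval 9.25% and 6.60%), and 1 of the 188 Opa1 cKO co-capture cells was (0.532%), whereas 22.4% of mural cells and 49.7% of NSC pool cells in Opa1 cKO were.

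The size of this difference depended on the cells with YFP RNA. Among the 36 CT and 48 Opa1 cKO endothelial-only cells without YFP the ratio of the mitochondrial mRNAs was −0.26 (−0.33 to −0.19), and between the 2 CT and 6 Opa1 cKO cells with YFP it was −1.61 (−1.79 to −1.42). The 2 CT cells set the latter value, since mitochondrial mRNAs made up 8.24% of their UMIs and 3.90% in CT cells without YFP, while the Opa1 cKO cells held 2.71% with YFP and 3.26% without it. In co-capture cells the ratio was −0.25 (−0.29 to −0.22) without YFP and −0.46 (−0.50 to −0.42) with it. It also depended on cells with NSC transcripts, since without the 5 CT and 9 Opa1 cKO endothelial-only cells that also met the NSC pool rule the ratio was −0.22. In cells with fewer than 3 summed Vtn, Rgs5 and Higd1b UMIs the ratio lay further below 0, as given with the alternatives below. The part of these groups of cells in the difference was not tested.

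Nuclear genes of the same machinery and of ribosomes differed little, against a median of 0.10 over all 753 genes. The part of transcript length in these lists was not tested. Nuclear-encoded OXPHOS subunits had a positive ratio in 43 of 60 measured genes (median 0.23, sum 0.21, 0.14 to 0.28) and in 76 of 82 in co-capture cells (median 0.20, sum 0.21, 0.18 to 0.24). Ndufc2, an accessory subunit of complex I, had 22 and 82 UMIs (1.01, 0.32 to 1.76), with 0.64 (0.35 to 0.93) in co-capture cells. Cytosolic ribosomal proteins were positive in 60 of 77 genes (median 0.18, sum 0.12, 0.07 to 0.16), among them Rpl17 with 50 and 170 UMIs (0.88, 0.42 to 1.36), Rpl28 with 29 and 103 (0.94, 0.34 to 1.59) and the paralog Rpl22l1 with 20 and 80 (1.11, 0.39 to 1.90). For OXPHOS the sums were 0.19 in mural cells, 0.25 in oligodendrocytes and 0.18 in the NSC pool, and for ribosomal proteins 0.52, 0.13 and 0.69.

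**Figure D4:**
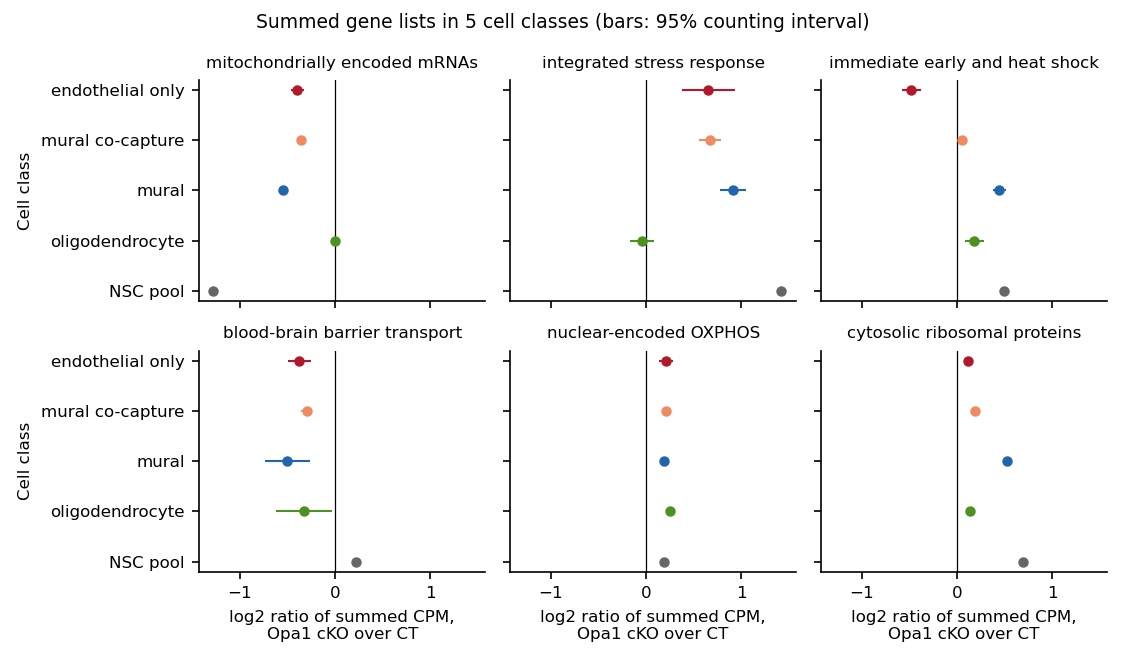
Each panel gives the log2 ratio of summed CPM, Opa1 cKO over CT, of 1 gene list in 5 cell classes, with 95% counting intervals where they are wider than the point. Endothelial-only cells stand at −0.40 for mitochondrially encoded mRNAs, where the NSC pool stands at −1.28, at 0.65 for the integrated stress response, and at −0.48 for immediate early and heat shock genes, where mural cells and the NSC pool lie right of 0.

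The integrated stress response (ISR), in which kinases that sense stress raise translation of ATF4 and ATF4 turns on amino acid and redox genes, was higher in Opa1 cKO. The 25 listed genes summed to 146 UMIs in CT and 423 in Opa1 cKO endothelial-only cells, 1931 and 3028 CPM, a log2 ratio of 0.65 (0.37 to 0.93). Co-capture cells gave 0.67 (0.56 to 0.79), with 871 and 2125 UMIs, mural cells 0.91, the NSC pool 1.42 and oligodendrocytes −0.04. Of 16 genes measured in co-capture cells 15 had a positive ratio and 7 were 2-fold or more higher. Slc3a2 alone reached 50 UMIs in endothelial-only cells. The promoters of 3 members are shown, since the matched letters lie in genes that were higher in both endothelial classes or, for Asns, in co-capture cells. They run from 250 bases before to 50 bases after the transcription start, 5′ to 3′, from RefSeq on GRCm38.p6, all on the minus strand, at chr3:50443564-50443863 for Slc7a11, chr7:126625421-126625720 for Nupr1 and chr6:7693160-7693459 for Asns, and capitals mark the letters TGATGNAA of the C/EBP-ATF response element on either strand.
Slc7a11: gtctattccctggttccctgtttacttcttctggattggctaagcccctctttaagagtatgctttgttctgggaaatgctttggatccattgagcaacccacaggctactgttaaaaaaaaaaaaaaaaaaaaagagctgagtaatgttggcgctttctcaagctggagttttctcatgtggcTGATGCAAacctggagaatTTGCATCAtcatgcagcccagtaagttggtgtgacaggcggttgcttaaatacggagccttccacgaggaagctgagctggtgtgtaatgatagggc
Nupr1: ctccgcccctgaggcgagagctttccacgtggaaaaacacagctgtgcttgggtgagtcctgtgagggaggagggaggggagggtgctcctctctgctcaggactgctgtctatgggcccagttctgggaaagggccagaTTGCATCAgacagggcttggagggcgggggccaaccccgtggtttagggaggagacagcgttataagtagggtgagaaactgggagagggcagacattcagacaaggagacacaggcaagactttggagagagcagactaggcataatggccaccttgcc
Asns: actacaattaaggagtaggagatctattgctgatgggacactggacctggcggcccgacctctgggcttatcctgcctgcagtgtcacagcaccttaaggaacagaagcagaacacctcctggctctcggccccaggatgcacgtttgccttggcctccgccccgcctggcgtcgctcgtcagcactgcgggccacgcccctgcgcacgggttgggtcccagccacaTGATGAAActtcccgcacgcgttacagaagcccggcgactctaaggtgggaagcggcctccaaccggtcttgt
Slc7a11 held 2 matches, 1 on each strand, and Nupr1 and Asns held 1. Of the 25 listed genes 22 were matched to a promoter by symbol and 8 of them held the letters, which 3.97% of all 32851 promoters of this length held, and in Ddit3, Slc3a2, Atf5, Mthfd2 and Atf4 they are not in this window. Of the 6 listed genes with an interval above 0 in both endothelial classes, Slc7a11 and Nupr1 held the letters and Ddit3, Slc3a2, Atf5 and Mthfd2 did not. The share of all genes with such intervals was not computed, so the 6 are a description. A match is a description of the letters and not of a bound site.

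Slc7a11, the cystine carrier of the cystine-glutamate exchanger (chr3:49892526-50443614, minus strand), had 4 UMIs in 1 CT cell and 25 UMIs in 7 Opa1 cKO cells, 36.0% of them in 1 cell (1.76, 0.22 to 3.74), and 13 and 65 UMIs in co-capture cells (1.71, 0.83 to 2.69). Its partner Slc3a2, the heavy chain shared with Slc7a5, had 64 and 160 UMIs (0.44, 0.01 to 0.88), with 0.33 (0.14 to 0.52) in co-capture cells. Slc3a2 was thus higher where its light chain Slc7a5 was lower. Ddit3, the stress transcription factor CHOP, had 1 and 13 UMIs (2.81, 0.08 to 8.22), and 17 and 90 in co-capture cells (1.79, 1.03 to 2.63). Nupr1, a small stress-induced chromatin protein, had 1 and 24 UMIs (3.70, 1.08 to 9.06), and 73 and 252 in co-capture cells (1.17, 0.79 to 1.57). Atf5, an ATF4 relative, had 0 and 15 UMIs in endothelial-only cells and 7 and 35 in co-capture cells (1.71, 0.51 to 3.12). Asns (asparagine synthetase) had 2 and 7 UMIs (0.92, −1.47 to 4.22), and 2 and 34 in co-capture cells (3.47, 1.51 to 6.58). Trib3, a pseudokinase that feeds back on ATF4, had 1 and 8 UMIs (2.11, −0.78 to 7.59), and 4 and 67 in co-capture cells (3.45, 2.03 to 5.37). Atf4 itself had 12 and 16 UMIs (−0.47, −1.64 to 0.74), and 44 and 91 in co-capture cells (0.43, −0.10 to 0.99).

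A few deep cells held much of this difference. The 6 Opa1 cKO endothelial-only cells with YFP RNA held 170 of the 423 ISR UMIs, and their median depth was 6090 UMIs, against 1971.5 in the 48 cells without it. The listed endothelial genes outside the rule summed to 19144 CPM in these 6 cells and to 46541 CPM in the 48 others. Without the cells that held YFP RNA the ratio of the list was 0.21 (−0.09 to 0.52), an interval that includes 0, and without the cells that also met the NSC pool rule it was 0.27, whereas in cells with fewer than 3 summed Vtn, Rgs5 and Higd1b UMIs it was 1.10. In co-capture cells the ratio was 0.48 (0.32 to 0.64) without YFP RNA and 0.87 (0.71 to 1.04) with it. Mural cells without YFP RNA gave 0.95 (0.76 to 1.13), so the share of the endothelial and the mural partner in the co-capture value cannot be told apart. In endothelial-only cells without YFP RNA a higher ISR was not detectable at this depth. Cdkn1a, a cell-cycle inhibitor that p53 and stress induce, had 72 and 71 UMIs in endothelial-only cells (−0.91, −1.40 to −0.41), and stood at 0.30 (0.04 to 0.56) in co-capture cells, 2.90 in mural cells and 3.304 in the NSC pool. Its mural ratio rests on few CT UMIs, which are given below.

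Transcripts of NSC and astrocytes were present and higher in Opa1 cKO. The 12 listed markers summed to 688 and 1854 UMIs in endothelial-only cells, 9100 and 13270 CPM (0.54, 0.42 to 0.67), 7 of 9 measured genes were positive, and no marker was at 0. Gja1 went the other way, with an interval below 0 in both endothelial classes, where Cpe, Gfap and Slc1a3 had one above 0. How many of all genes had such intervals was not computed, so these genes are a description. In co-capture cells the sum gave −0.25 (−0.30 to −0.19). Apoe, the apolipoprotein of astrocytes and the most abundant of the list, stood at 4590 and 6299 CPM, where oligodendrocytes held 4701 and 4546, mural cells 3038 and 2235, and the NSC pool 42306 and 36202 CPM. Aldoc, a glycolytic enzyme of astrocytes, had 46 UMIs in 16 of 38 cells and 197 UMIs in 21 of 54 cells (1.21, 0.74 to 1.71), so that the share of cells with it was alike, and 1 cell held 34.8% of its UMIs in CT and 25.4% in Opa1 cKO. Gfap, an astrocyte intermediate filament, had 2 and 40 UMIs, of which 1 cell held all 2 in CT and 60.0% in Opa1 cKO (3.44, 1.49 to 6.53), and 11 and 68 in co-capture cells (2.01, 1.08 to 3.08). Cpe (carboxypeptidase E) had 46 and 173 UMIs (1.03, 0.55 to 1.53), Plpp3, a lipid phosphatase, 22 and 82 (1.01, 0.32 to 1.76), and Glul (glutamine synthetase) 135 and 454 (0.86, 0.58 to 1.15). Cpe, Plpp3 and Glul are among the 12 highest ratios by the rule, and Plpp3 stood at −0.02 without the 3 CT and 7 Opa1 cKO cells with at least 5 summed Aldoc, Slc1a3 and Gja1 UMIs. Oligodendrocyte markers had 22 and 55 UMIs, microglia and macrophage markers 2 and 7, neuron markers 0 and 2, fibroblast markers 1 and 1, and red blood cell genes 2 and 3. The part of NSC transcripts in the other differences was not tested.

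Genes of antigen presentation and the interferon response lay near other genes of like length, with a positive ratio in 7 of 9 measured genes and a sum of 961 and 2051 UMIs (0.21, 0.10 to 0.32), and 0.24 (0.18 to 0.29) in co-capture cells. All 9 were under 4 kb with a median of 0.21, where all genes under 1 kb, of 1 to 2 kb and of 2 to 4 kb had medians of 0.18, 0.14 and 0.13. In co-capture cells the median was 0.15 for 17 shorter genes and −0.35 for 3 longer ones. B2m, the light chain of MHC class I, had 116 and 361 UMIs (0.75, 0.45 to 1.07), with 594 and 1315 (0.53, 0.39 to 0.67) in co-capture cells. H2-D1, a class I heavy chain, had 104 and 223 UMIs (0.21, −0.13 to 0.56), and Ifitm3, an antiviral membrane protein, had 134 and 300 (0.28, −0.02 to 0.58). Oligodendrocytes gave −0.55 for B2m, mural cells 0.62 and the NSC pool 0.55.

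The remaining genes at the ends of the ranking are given with their ratios in other classes where these bear on them. Serinc3, a membrane protein of the serine incorporator family (chr2:163623272-163645131, minus strand), had 68 and 32 UMIs, 899 and 229 CPM (−1.97, −2.63 to −1.35), the lowest ratio among genes with at least 100 UMIs of which no single cell held over 25%. It stood at −2.16 in co-capture cells, −2.57 in mural cells, −2.95 in oligodendrocytes and −1.60 in the NSC pool. Sgms1 (sphingomyelin synthase) had 75 and 66 UMIs (−1.07, −1.57 to −0.57) and stood at −1.07, −2.17, −1.96 and −0.74 in the same order. Rps27rt, a copy of Rps27 whose reads may be split between the genes, had 63 and 51 UMIs (−1.19, −1.75 to −0.64), with −1.20 (−1.44 to −0.95) in co-capture cells. Tsc22d3, a glucocorticoid-induced leucine zipper protein, had 74 and 67 UMIs (−1.03, −1.53 to −0.53), with −0.92 (−1.15 to −0.68) in co-capture cells. Gatm, an enzyme of creatine synthesis, had 58 and 52 UMIs (−1.04, −1.61 to −0.48), and Rhob, a small GTPase, had 74 and 78 (−0.81, −1.29 to −0.33), with −0.79 (−0.97 to −0.61) and −0.36 (−0.57 to −0.15) in co-capture cells. Tmsb10 had 178 and 154 UMIs (−1.09, −1.42 to −0.78) and stood at 0.05 (−0.09 to 0.19) in co-capture cells and 0.03 in mural cells. Among the higher genes, H2afz, a histone variant, had 19 and 93 UMIs (1.41, 0.68 to 2.20), with 0.19 (−0.05 to 0.44) in co-capture cells. Dbi, the acyl-CoA-binding protein, had 43 and 202 UMIs (1.35, 0.87 to 1.86), and Cnbp, a nucleic acid-binding zinc finger protein, had 39 and 131 (0.86, 0.34 to 1.42), with 0.67 (0.48 to 0.87) in co-capture cells.

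**Figure D5:**
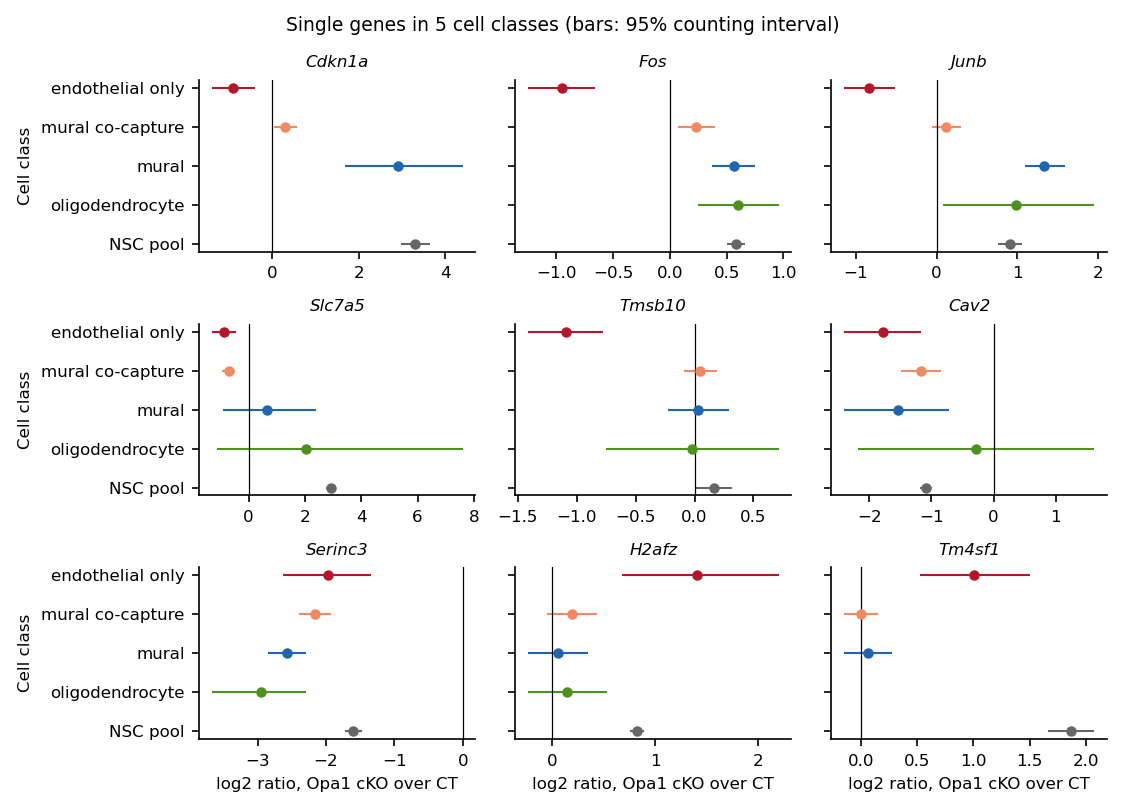
Each panel gives the log2 ratio of CPM, Opa1 cKO over CT, of 1 gene in 5 cell classes with its 95% counting interval, and a class without UMIs in a library has no point. Serinc3 and Cav2 lie left of 0 in endothelial-only, co-capture, mural and NSC pool cells alike, whereas Cdkn1a, Fos and Junb lie left of 0 in endothelial-only cells and right of 0 in mural and NSC pool cells.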

How the data were processed

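The authors deposited 1 gene-by-barcode matrix per genotype with UMI counts, which are whole numbers without normalization. Per the submitters' processing notes they were made with Cell Ranger 2.1.1 on mm10, and the matrix headers name software version 3.1.0. The endothelial cells and the gene lists were chosen with earlier results of these data known. Counts of 22625 gene identifiers were summed by symbol (35 symbols had several). Cells that met the endothelial rule were kept also where they met the rule for NSC or oligodendrocytes, and an alternative leaves them out. No doublet caller was run. UMIs were summed over the cells of a class and library, divided by all UMIs of those cells (CPM, no pseudocount) and compared as log2 ratios with exact binomial 95% intervals, and shares have Clopper-Pearson intervals. A gene was measured with at least 50 UMIs over both libraries, and "2-fold" is a log2 ratio of 1. Named at the ends of the ranking were the 12 highest and 12 lowest ratios among genes with at least 100 UMIs of which no cell held over 25% in the library with the higher level. Cells are not replicates, so with 1 library per genotype no p-value was computed. Transcript lengths and positions came from GENCODE M21. The length split was chosen after the values were seen. Ratios were checked on simulated Poisson counts without spread between cells. That check does not cover genes of which a single cell held much of the UMIs. Python 3.11.15, numpy 2.4.6, scipy 1.17.1 and pandas 2.3.3 were used. The alternatives varied depth, limits and cells.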

Additional observations from a re-analysis of the deposited data

Results flagged for a closer look

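Several genes with a named ratio moved in opposite directions in endothelial-only cells and in another class of the same libraries. The differences between classes were not tested, and each is given as the log2 ratio in endothelial-only cells minus that in the other class. For Cdkn1a the difference was −3.81 against mural cells and −4.21 against the NSC pool. The mural value rests on few CT counts. Mural cells of CT held 4 Cdkn1a UMIs in cells with YFP RNA and 2 in cells without it. In Opa1 cKO these were 33 and 19. For Slc7a5 the difference was −3.80 against the NSC pool, where this amino acid transporter was higher in Opa1 cKO. For Junb it was −2.17 against mural cells and −1.74 against the NSC pool, and for Fos −1.52 and −1.54. Against the NSC pool it was −1.29 for Gatm, −1.26 for Tmsb10 and 1.49 for Plpp3. In data outside these comparisons, 13 Opa1 cKO cells and 0 CT cells met the endothelial marker rule but held at least 10 globin UMIs. Those 13 cells held 57 to 4742 globin UMIs, with a median of 3139, and 7 of them also held mural transcripts.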

How the results depend on the processing

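No paired analysis was possible because each genotype had 1 library. Of 168 alternative values for the main results 115 stayed within their counting interval or within 1.5 times the count, under 17 alternatives, of which 3 (without cells that met 2 rules, without cells with YFP, and without cells with 3 or more mural UMIs) were chosen after seeing the data. For the 24 named genes 311 of 336 values stayed so, and Plpp3 reversed to −0.0200 without cells of at least 5 NSC UMIs, and Cdkn1a changed sign to 0.0508 with co-capture cells included. Of 370 list medians 44 had another sign than the main value. The causes were not tested.

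The 31 genes 2-fold higher became 75 with co-capture cells included, 11 without cells of at least 5 NSC UMIs, 7 after thinning to 1000 UMIs, 162 at a minimum of 20 UMIs, 9 at 100 UMIs, 11 in cells with fewer than 3 mural UMIs, 8 without cells that met 2 rules and 18 without YFP, and the 18 lower ones became 137, 9, 6, 97, 7, 9, 8 and 10. The genes measured changed with each of these alternatives, and the shares were not computed. These counts therefore do not show more or fewer differences than 31 and 18 of 753 genes. With co-capture cells included the cells were 160 (3.82%) and 242 (3.95%), the arterial sum was −0.00304, the immediate early sum −0.0411 and the venous sum −0.24. In YFP-positive cells alone, 2 CT (0.0478%) and 6 Opa1 cKO cells (0.0980%), the arterial sum was −0.13, the immediate early sum 0.97, the ISR sum 2.30, the mitochondrial sum −1.61 and the venous sum −0.50, and genes and medians were not computed. Without YFP-positive cells the immediate early sum was −0.36, the ISR sum 0.21 and the mitochondrial sum −0.26. Without cells that met 2 rules the ISR sum was 0.27, with 0.55 in co-capture cells, and the mitochondrial sum −0.22, with −0.24 in co-capture cells. With fewer than 3 mural UMIs 26 Opa1 cKO cells stayed (0.425%), with an ISR sum of 1.10, a mitochondrial sum of −0.61 and a venous sum of −0.65. Without cells of at least 5 NSC UMIs the mitochondrial sum was −0.30. After thinning, it was −0.30, the transport sum −0.23, and the share of co-capture cells with YFP 13.2% and 13.8%. As a mean over cells the mitochondrial sum was −0.31. Relative to the median of all genes it was −0.50 and the immediate early sum −0.58. With over 1000 genes required, 21 CT cells stayed. Depth limited the genes measured, which were 753 in endothelial-only cells and 4450 in co-capture cells.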

Other observations

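Other lists were sparse in endothelial-only cells and are given as values. Hypoxia-response genes summed to 119 UMIs in CT and 156 in Opa1 cKO (log2 ratio −0.50, −0.85 to −0.14), and all 6 measured in co-capture cells were negative (sum −0.66, −0.81 to −0.50). Epas1, the HIF-2α subunit of endothelium, had 59 and 86 UMIs (−0.34, −0.84 to 0.16) and 387 and 334 in co-capture cells (−0.83, −1.04 to −0.61). Basement membrane genes stood at −0.14 (−0.33 to 0.04), and at −0.34 (−0.42 to −0.27) in co-capture cells, where all 13 measured genes were negative, 10 of them with transcripts of 4 kb or more. Glycolysis genes stood at 0.03 (−0.19 to 0.25). Notch pathway genes stood at −0.40 (−0.79 to −0.01), and at −0.12 (−0.27 to 0.03) in co-capture cells. Genes of mitochondrial fusion, fission and cristae had 67 and 163 UMIs (0.40, −0.02 to 0.83). Hspa9, the mitochondrial chaperone mortalin, had 8 and 38 UMIs (1.36, 0.24 to 2.67), and 74 and 202 in co-capture cells (0.83). Cell-cycle genes had 21 and 15 UMIs. In co-capture cells oligodendrocyte markers had 95 and 790 UMIs (2.44, 2.13 to 2.76), and 0 CT and 2 Opa1 cKO co-capture cells also met the oligodendrocyte rule, whose share of these UMIs was not measured.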
